A study of Rattus norvegicus with 10 samples.

Results

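Retinoic acid, the form of vitamin A that drives germ cells into differentiation and meiosis, is made, bound, broken down and read by a small group of genes, and 9 of these were followed here in rat testes. They were Rbp4, Rdh10, Aldh1a1, Aldh1a2, Crabp1, Cyp26a1, Cyp26b1, Rara and Stra8. A gene was included where a probe set carried its symbol and no other, and all 9 of 9 were found, each with 1 probe set, among 18166 named genes measured.

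Retinol reaches the testis bound to the plasma carrier that Rbp4 encodes. Inside cells, retinol dehydrogenases such as Rdh10 oxidise it to retinaldehyde, and the retinaldehyde dehydrogenases Aldh1a1 and Aldh1a2 oxidise that to retinoic acid. Crabp1 encodes a cytoplasmic retinoic acid binding protein, and the cytochromes Cyp26a1 and Cyp26b1 hydroxylate retinoic acid and so clear it. Rara encodes a nuclear receptor that binds the acid and sits on paired DNA hexamers, and Stra8 is a germ cell gene induced by retinoic acid and switched on ahead of meiosis. From work in mice, Aldh1a1 is placed mainly in Sertoli and Leydig cells, Aldh1a2 in spermatocytes and spermatids, and Cyp26b1 in the peritubular cells around the tubules.

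The tissue was testis of Zucker rats aged 14 weeks and labelled as sexually mature, whose fa/fa animals become obese through a mutation of the leptin receptor. The groups were under-developed testes from the obese phenotype (4 arrays), testes of normal development from the obese phenotype (4 arrays), and testes of normal development from the lean phenotype (2 arrays). The labels give the model Zucker (fa/fa) to all 10 samples, the lean ones included, so the genotype of the lean rats was not settled. Samples are called biological replicates, but whether every one was a different animal is not stated, and p-values then reflect only how these samples vary, which may be technical.

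Expression was read as log2 values per probe set, and these ran from 2.28 to 14.04 with array medians between 6.14 and 6.38. Under-developed replicates 1, 2 and 3 stood apart from the normal testes, with a mean correlation over genes of 0.856, 0.946 and 0.731 with the 6 normal arrays, whereas under-developed replicate 4 correlated with them at 0.995 and the normal arrays with each other at 0.995 to 0.996. On this measure replicate 4 goes against its label. Fitted differences of under-developed testes are therefore given with and without replicate 4, a choice made after its values had been seen. Leaving out the under-developed array most like the normal ones tends to enlarge differences and narrow the spread. The p-values and calls without replicate 4 are therefore descriptive. Arrays give the relative amount of RNA in whole testis, so fewer cells of a type and less RNA per cell cannot be told apart.

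The upstream sequences show which of these genes carry the letters that retinoic acid receptors are known to bind. Promoter windows from RefSeq (build GRCr8) were found for 8 of the 9 genes by gene number, and Rdh10 had none in the table. In the 250 bases before each annotated start, the hexamer AGTTCA was searched on both strands together with its relatives AGGTCA, then GGTTCA, then GGGTCA, alone and as direct repeats with 2 or 5 bases between them. Cyp26a1 was the only member with such a repeat, a pair of AGTTCA hexamers with 5 bases between them on the minus strand at bases 159 to 175 of the run. Repeats with that spacing were present in 0.326% of 33469 promoters, and repeats with 2 bases between hexamers in 0.137%. Stra8, Aldh1a1 and Rara each held a single hexamer, and 39.1% of all promoters held at least 1. The windows of Stra8 and Cyp26a1, both known as retinoic acid targets in mice, are printed with those of Cyp26b1, which held no hexamer, and of Aldh1a1, whose RNA differed strongly. Runs read 5′ to 3′ on the strand of the gene, and capitals mark the hexamers in either orientation. A match is a description of letters and not evidence of binding. For Aldh1a1 and Rara the start used lies inside the annotated span of the gene, so other starts were not covered.
Stra8, chr4:64568330-64568579, plus strand: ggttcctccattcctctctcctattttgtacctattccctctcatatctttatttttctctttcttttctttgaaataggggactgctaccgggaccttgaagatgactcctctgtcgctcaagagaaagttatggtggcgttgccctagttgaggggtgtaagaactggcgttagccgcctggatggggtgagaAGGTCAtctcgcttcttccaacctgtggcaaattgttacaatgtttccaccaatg
Cyp26a1, chr1:244883572-244883821, plus strand: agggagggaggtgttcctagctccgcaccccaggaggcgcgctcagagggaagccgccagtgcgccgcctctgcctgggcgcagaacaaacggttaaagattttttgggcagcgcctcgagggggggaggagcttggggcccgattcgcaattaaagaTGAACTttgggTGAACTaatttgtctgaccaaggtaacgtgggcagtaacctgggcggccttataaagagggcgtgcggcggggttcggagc
Cyp26b1, chr4:118616177-118616426, minus strand: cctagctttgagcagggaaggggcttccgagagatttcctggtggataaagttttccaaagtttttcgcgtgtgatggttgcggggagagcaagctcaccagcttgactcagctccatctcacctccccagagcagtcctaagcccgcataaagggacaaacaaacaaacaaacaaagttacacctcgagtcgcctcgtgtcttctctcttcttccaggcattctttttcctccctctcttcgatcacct
Aldh1a1, chr1:227537370-227537619, plus strand: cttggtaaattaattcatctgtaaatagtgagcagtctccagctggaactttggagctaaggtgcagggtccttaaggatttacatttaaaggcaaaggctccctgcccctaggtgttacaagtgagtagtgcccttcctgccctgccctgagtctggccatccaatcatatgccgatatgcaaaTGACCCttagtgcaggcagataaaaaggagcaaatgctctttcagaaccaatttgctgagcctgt

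In under-developed replicates 1 to 3, Aldh1a1, Cyp26b1 and Rbp4 were higher and Aldh1a2, Stra8 and Rdh10 were lower than on every one of the 6 normal arrays. These 6 were 3 of 9 above and 3 of 9 below, where 28.7% of all genes lay above and 26.7% below on all 3 arrays (55.4% in all). Outside the range of the 6 normal arrays lay 9, 8, 8 and 1 of the 9 genes in replicates 1 to 4, where 78.5%, 72.4%, 81.5% and 36.4% of all genes did. Cyp26a1, Crabp1 and Rara did not move together across these arrays. In the fit of all 10 arrays 0 of the 9 genes passed limma's test at an adjusted p under 0.05, as did 0% of all genes, and 6 of 9 had an unadjusted p under 0.05, where 46.6% of all genes did. Without under-developed replicate 4, 6 of 9 passed, where 56% of all genes did. Of these 3 rose, against 29.6% of all genes, and 3 fell, against 26.4%. A share of 6 in 9 lies near that of all genes, so the count is no result about these genes, and the sizes and directions of single genes carry the description. The median absolute difference without replicate 4 was 1.02 log2 over the 9 genes and 0.47 over all genes. All genes include dim ones, and the 9 genes were chosen with earlier results of these data known. The gap between these medians is therefore no result about the 9 genes either.

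**Figure D1:**
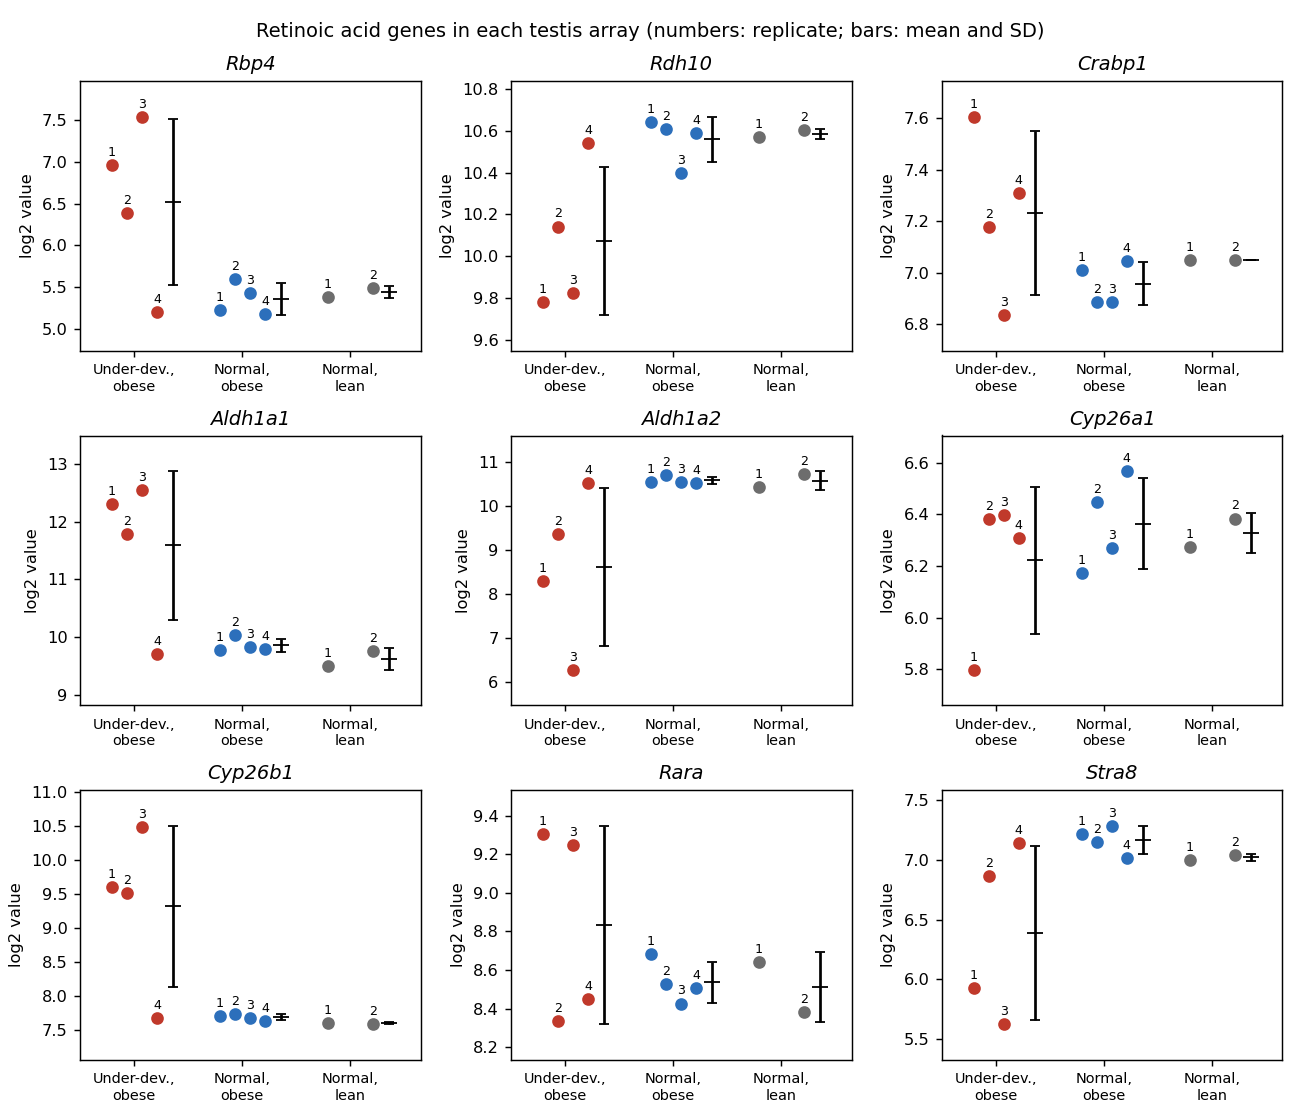
Log2 values (vertical axes, each with its own range) of the 9 genes on every array of under-developed obese, normal obese and normal lean testes (horizontal axis). Points are arrays with their replicate number, and bars are the mean and SD of a group (n = 4, 4 and 2). Under-developed replicates 1 to 3 of Aldh1a1 lie between 11.78 and 12.54, above all normal arrays, and replicate 4 lies at 9.71, among them.

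Of the supply genes, the retinol carrier gene Rbp4 (chr1:245306349-245313551, minus strand, GRCr8) stood at 6.96, 6.38, 7.54 and 5.20 log2 in under-developed replicates 1 to 4, against 5.23, 5.59, 5.44 and 5.18 in normal obese testes and 5.39 and 5.50 in normal lean testes. Replicates 1 to 3 lay above all normal arrays and replicate 4 lay within their range. Its level is low for this array set, since 27.6% of genes had a lower mean. The fitted difference between under-developed and normal obese testes was 1.16 ± 0.42 log2 (SE, limma adjusted p = 0.0731) with all arrays and 1.60 ± 0.24 (limma adjusted p = 0.000702) without replicate 4. At so low a level the size depends on the background, and with an offset of 50 added before log2 the difference over all arrays was 0.69, so no fold is given.

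Rdh10 (chr5:7969931-7998834), the retinol dehydrogenase of the first oxidation step, stood at 9.78, 10.14, 9.82 and 10.54 log2 in under-developed replicates 1 to 4, against 10.64, 10.61, 10.40 and 10.59 in normal obese testes and 10.57 and 10.60 in normal lean testes. The under-developed arrays 1 to 3 were the lowest of all 10. Rdh10 differed by −0.49 ± 0.17 log2 (SE, limma adjusted p = 0.0712) with all arrays. It fell by 0.64 ± 0.12 (limma adjusted p = 0.00178) without replicate 4, the smallest of the 6 differences that passed.

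The 2 retinaldehyde dehydrogenases went opposite ways. Aldh1a1 (chr1:227426939-227579497, plus strand) stood at 12.30, 11.78, 12.54 and 9.71 log2 in under-developed replicates 1 to 4, against 9.78, 10.03, 9.82 and 9.80 in normal obese testes and 9.49 and 9.76 in normal lean testes. Its RNA in replicates 1 to 3 was 5.45, 3.80 and 6.42 times the normal obese mean, and in replicate 4 it was 0.905 times that mean. The difference was 1.73 ± 0.53 log2 (SE, limma adjusted p = 0.0702) with all arrays and 2.35 ± 0.18 (limma adjusted p = 5.76e-05) without replicate 4.

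Aldh1a2 (chr8:80758641-80837891, plus strand) stood at 8.30, 9.36, 6.28 and 10.52 log2 in under-developed replicates 1 to 4, against 10.55, 10.70, 10.54 and 10.53 in normal obese testes and 10.42 and 10.72 in normal lean testes. The size differed between arrays, with 4.87-fold, 2.33-fold and 19.7-fold lower RNA than the normal obese mean in replicates 1, 2 and 3 and 1.04-fold lower in replicate 4. The under-developed and normal obese arrays did not overlap for this gene, as for 17.8% of all genes, though replicate 4, at 10.519 log2, lay just below the lowest normal obese array, at 10.527. With all arrays, no other member had under-developed and normal obese groups that did not overlap. Aldh1a2 differed by −1.97 ± 0.74 log2 (SE, limma adjusted p = 0.0768) with all arrays and fell by 2.60 ± 0.58 (limma adjusted p = 0.00488) without replicate 4. Its SD among under-developed arrays, 1.80 log2, was the widest of the 9 genes and compares with 0.082 among normal obese arrays (n = 4 each).

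Crabp1 (chr8:64047431-64055469, plus strand), the cytoplasmic binding protein gene, moved in no common direction. It stood at 7.60, 7.18, 6.84 and 7.31 log2 in under-developed replicates 1 to 4, against 7.01, 6.89, 6.89 and 7.05 in normal obese testes and 7.05 in both normal lean testes. Replicates 1, 2 and 4 lay above all normal arrays and replicate 3 below them. It was the only member for which replicate 4 left the range of the 6 normal arrays, which that array did for 36.4% of all genes. The difference was 0.27 ± 0.16 log2 (SE, limma adjusted p = 0.19) with all arrays and 0.25 ± 0.17 (limma adjusted p = 0.24) without replicate 4.

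The 2 retinoic acid hydroxylases also differed in what they did. Cyp26b1 (chr4:118599356-118616176, minus strand) stood at 9.61, 9.51, 10.49 and 7.66 log2 in under-developed replicates 1 to 4, against 7.70, 7.73, 7.67 and 7.63 in normal obese testes and 7.60 and 7.58 in normal lean testes. The 6 normal arrays lay between 7.58 and 7.73, and replicates 1 to 3 were 3.80, 3.55 and 7.01 times the normal obese mean. The difference was 1.64 ± 0.49 log2 (SE, limma adjusted p = 0.0702) with all arrays and 2.19 ± 0.21 (limma adjusted p = 0.00011) without replicate 4.

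Cyp26a1 (chr1:244883822-244887657, plus strand), whose upstream run above holds the direct repeat, stood at 5.80, 6.38, 6.40 and 6.31 log2 in under-developed replicates 1 to 4, against 6.17, 6.45, 6.27 and 6.57 in normal obese testes and 6.27 and 6.38 in normal lean testes. Replicate 1 alone lay below the normal arrays, and the other 3 lay inside their range. Cyp26a1 differed by −0.14 ± 0.16 log2 (SE, limma adjusted p = 0.505) with all arrays and by −0.17 ± 0.17 (limma adjusted p = 0.43) without replicate 4. Its probe set was dim, with 37.1% of genes at a lower mean, which limits what a change could show.

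Rara (chr10:84379780-84424371, plus strand), the receptor gene, stood at 9.31, 8.33, 9.25 and 8.45 log2 in under-developed replicates 1 to 4, against 8.68, 8.53, 8.43 and 8.51 in normal obese testes and 8.64 and 8.38 in normal lean testes. Replicates 1 and 3 lay above all normal arrays and replicate 2 below them all. The difference was 0.30 ± 0.23 log2 (SE, limma adjusted p = 0.335) with all arrays and 0.43 ± 0.23 (limma adjusted p = 0.142) without replicate 4.

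Stra8 (chr4:64568580-64591914, plus strand), which germ cells need to enter meiosis in mice, stood at 5.93, 6.87, 5.63 and 7.14 log2 in under-developed replicates 1 to 4, against 7.22, 7.15, 7.28 and 7.01 in normal obese testes and 7.002 and 7.04 in normal lean testes. Replicates 1 to 3 were the lowest of all 10 arrays, and replicate 2 lay nearest to the normal ones. Stra8 differed by −0.77 ± 0.31 log2 (SE, limma adjusted p = 0.0866) with all arrays and fell by 1.02 ± 0.26 (limma adjusted p = 0.00826) without replicate 4. With an offset of 50 added before log2 the difference over all arrays was −0.50.

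**Figure D2:**
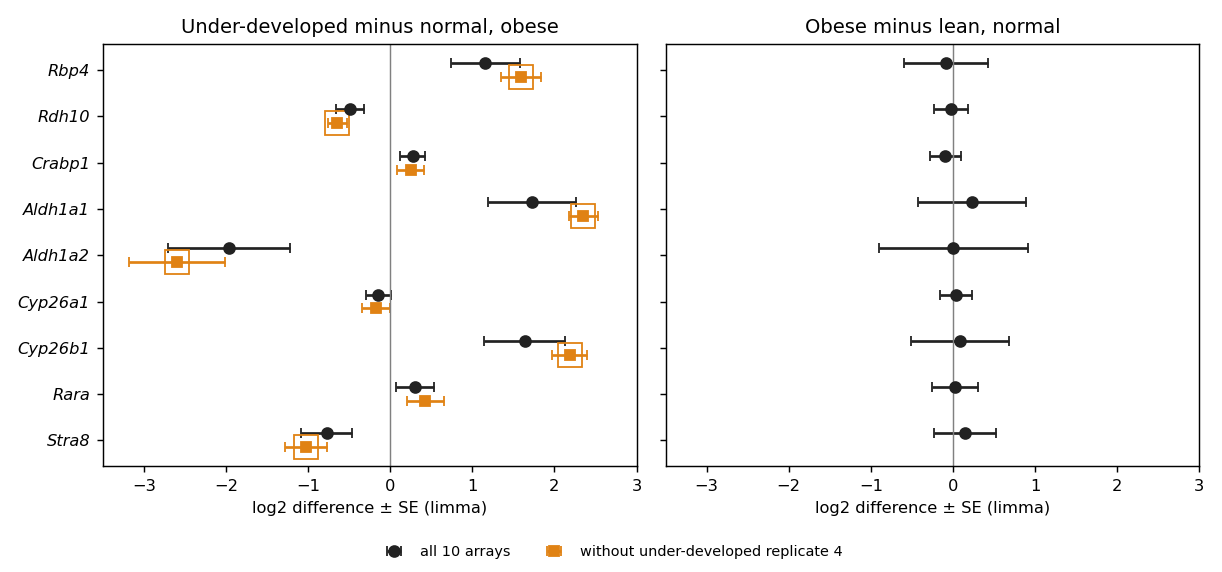
Fitted log2 differences with their SE (horizontal axis) of the 9 genes (vertical axis) for under-developed minus normal testes of obese rats (left) and for obese minus lean normal testes (right). Circles are the fit of all 10 arrays, squares the fit without under-developed replicate 4, and open outlines mark a limma adjusted p under 0.05. Outlines stand at Rbp4, Aldh1a1 and Cyp26b1 on the positive side and at Rdh10, Aldh1a2 and Stra8 on the negative side.

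These log2 differences are relative to the scaling of the arrays. The median of the genes was slightly higher in replicates 1 to 3, so centring arrays on it shifts every difference by −0.10. The 53 ribosomal protein genes stood 0.85, 0.48, 0.83 and −0.13 log2 above the normal obese mean in replicates 1 to 4. Centring on them shifts every difference by −0.72 and centring on Sertoli markers by −1.37 without replicate 4. With those 2 centrings and without replicate 4, limma called 12605 genes lower and 2269 higher for ribosomal protein genes, and 15798 lower and 906 higher for Sertoli markers, against 4790 lower and 5381 higher as deposited. Aldh1a1 still rose, by 0.99 ± 0.12 log2 (SE, limma adjusted p = 5.03e-05) over the Sertoli list, and Cyp26b1 by 0.82 ± 0.17 (limma adjusted p = 0.00125). That list is a mean of markers whose deposited values differed by −0.28 (Amh) to 3.34 log2 (Itga6) without replicate 4. A rise over it is therefore not a rise over every Sertoli marker. Rbp4 was 0.23 ± 0.17 log2 above the Sertoli list (limma adjusted p = 0.207). Stra8, Aldh1a2 and Rdh10 were lower under each scaling tried. Each of these centrings shifts every difference downward, so genes already lower had to stay lower and the centrings do not test them. Crabp1 and Rara turned negative under both centrings, and most of these values passed. Crabp1 stood at −0.47 log2 on ribosomal protein genes (limma adjusted p = 0.0346) and −1.12 on the Sertoli list (limma adjusted p = 0.000765). Rara stood at −0.29 on ribosomal protein genes (limma adjusted p = 0.133) and −0.94 on the Sertoli list (limma adjusted p = 0.000245). Cyp26a1 was also called lower, at −0.89 on ribosomal protein genes (limma adjusted p = 0.00415) and −1.54 on the Sertoli list (limma adjusted p = 0.00015).

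Some marker lists of testis cell types differed on the same under-developed arrays as some of these genes. The 18 spermatocyte markers had a mean difference from the normal obese testes of −2.34, −0.78, −3.48 and 0.02 log2 in under-developed replicates 1 to 4, and 18 of 18 fell without replicate 4. Their mean level ran from 6.33 to 9.83 log2 in under-developed testes, 9.76 to 9.85 in normal obese testes and 9.79 to 9.82 in normal lean testes. Aldh1a2 differed by −2.28, −1.22, −4.30 and −0.06 and so lay within 0.06 to 0.82 log2 of that list on replicates 1 to 3. Stra8 differed by −1.24, −0.30, −1.54 and −0.02, less than the spermatocyte list on each of replicates 1 to 3. Its normal obese mean, 7.165 log2, was below that of the list, and whether this limited its fall was not tested. The 14 spermatid markers differed by −2.51, −0.68, −4.34 and −0.05, and 13 of 14 fell. Their mean level ran from 7.96 to 12.25 log2 in under-developed testes, against 12.29 to 12.32 in normal obese and 12.28 to 12.31 in normal lean testes. The 13 spermatogonia markers differed by 0.07, −0.05, 0.22 and −0.05, with 3 higher and 3 lower without replicate 4. Kit rose by 1.97 log2, Zbtb16 by 0.96 and Uchl1 by 0.80, while Sohlh2 fell by 1.66, Dmrtb1 by 1.34 and Gfra1 by 0.34. The mean of this list therefore describes no common change.

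Among somatic lists, the mean of the 21 Sertoli markers stood 1.47, 1.06, 1.57 and −0.01 log2 from that of normal obese testes in under-developed replicates 1 to 4, and 17 rose and 1 fell without replicate 4. Their mean level was 8.19 to 9.78 log2 in under-developed testes, against 8.14 to 8.29 in normal obese and 8.11 to 8.20 in normal lean testes. The 13 Leydig markers differed by 1.34, 0.83, 1.47 and −0.22 (10 rose) and the 5 measured peritubular myoid markers by 1.32, 0.94, 1.90 and −0.29 (4 rose). The Leydig mean ran from 7.69 to 9.38 log2 in under-developed testes, against 7.70 to 8.04 in normal obese and 7.75 to 7.94 in normal lean testes, and the myoid mean from 7.66 to 9.85, against 7.73 to 8.17 and 7.46 to 7.57. Aldh1a1 differed by 2.45, 1.93, 2.68 and −0.14, and Cyp26b1 by 1.93, 1.83, 2.81 and −0.02, above the means of all 3 lists on replicates 1 to 3. Single Sertoli markers ran from −0.28 (Amh) to 3.34 log2 (Itga6) without replicate 4. Itga6, Cst12, Cldn11 and Kitlg rose more than both genes, and the other Sertoli markers rose less or not at all. Rbp4, at 1.59, 1.02, 2.18 and −0.16, lay above the Leydig and myoid means on replicates 1 to 3. It lay below the Sertoli mean on replicate 2 by 0.03 log2. Macrophage markers (11 genes) differed by 2.12, 1.31, 1.93 and −0.08, fibroblast markers (6 genes) by 1.95, 1.27, 2.18 and −0.10 and endothelial markers (6 genes) by 0.84, 0.60, 1.03 and 0.01. On replicate 1 Cyp26b1 lay below the macrophage and fibroblast means. The 7 adipocyte markers went opposite ways without replicate 4. Of these Cfd rose by 2.61 log2 and Fabp4 by 0.83, while Lipe fell by 2.45, Cidec by 0.83 and Adipoq by 0.40, so their mean (−0.15, −0.04, 0.07 and 0.00) describes no common change. Of the 8 epididymis markers, with means of −0.11, −0.01, 0.03 and 0.12, Rnase10 rose by 0.43 and Lcn9 fell by 0.87. Set against the Sertoli list, the Leydig and endothelial means were lower on replicates 1 to 3, the myoid mean was lower on replicates 1 and 2 and higher on replicate 3, and the macrophage and fibroblast means stayed higher. Without replicate 4, 10 macrophage markers rose and 1 fell, and 6 fibroblast and 5 endothelial markers rose. With all arrays 0 markers of any list passed. The part of changed cell make-up in the differences of the 9 genes was not tested.

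**Figure D3:**
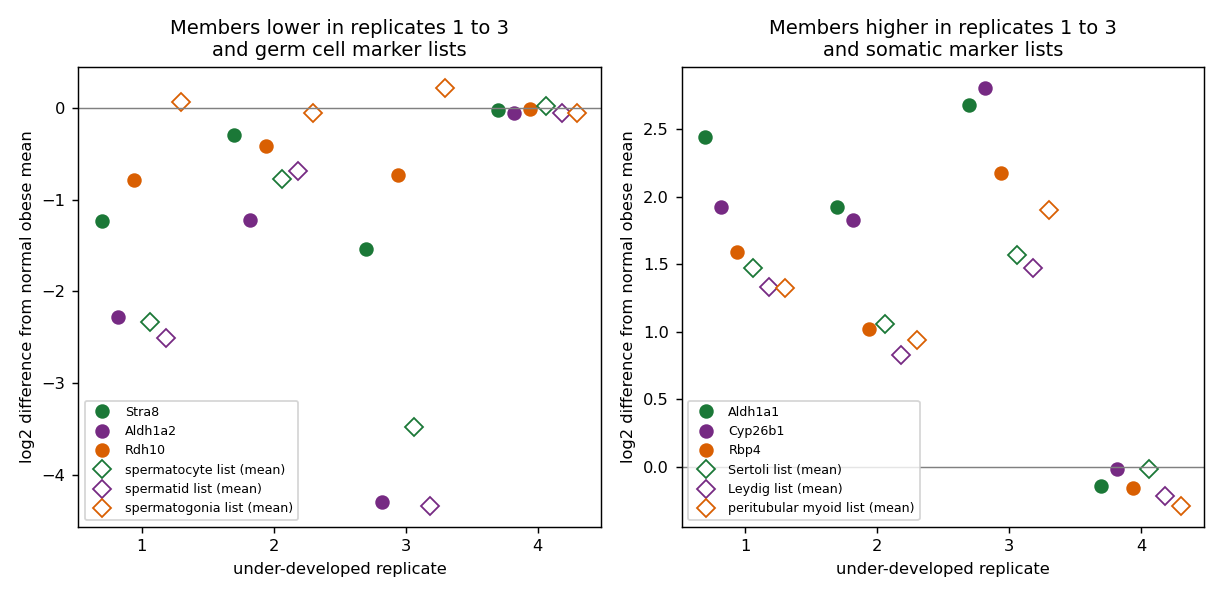
Log2 difference from the mean of the normal obese testes (vertical axes) on each under-developed replicate (horizontal axis), for 3 genes that were lower in replicates 1 to 3 with germ cell marker lists (left) and 3 that were higher with somatic lists (right). Filled circles are genes and open diamonds are list means. On replicate 3 Aldh1a2 (−4.30) lies beside the spermatid list (−4.34), and on replicate 4 all symbols lie near 0.

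Other genes of the retinoid pathway were grouped by role. In each list 0 genes passed with all arrays, and the counts that follow are from limma without replicate 4, beside 29.6% of all genes higher and 26.4% lower. Among 9 measured genes of retinol uptake, binding and storage, 1 rose and 3 fell, with a median difference of −0.02 log2, against 0.07 for all genes. Stra6, the cell surface receptor of the retinol carrier, fell by 1.03 ± 0.22 log2 (SE), and differed by −1.16, −0.46, −1.49 and 0.06 in replicates 1 to 4. Lrat, which esterifies retinol for storage, fell by 0.96 ± 0.19, and Lrp2, the endocytic receptor megalin, fell by 1.02 ± 0.13. Lpl, a lipase that releases fatty acids from lipoproteins, rose by 2.28 ± 0.47 (limma adjusted p = 0.00309). With all arrays Stra6, Lrat, Lrp2 and Lpl differed by −0.76, −0.72, −0.69 and 1.63 log2, with limma adjusted p from 0.0731 to 0.0998.

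Of 15 genes that interconvert retinol and retinaldehyde or make retinaldehyde from other sources, 4 rose and 1 fell (median 0.27 log2). Rdh11, a retinol dehydrogenase, fell by 1.94 ± 0.40 log2 (SE) and differed by −2.07, −0.82, −2.93 and −0.04 in replicates 1 to 4, at a normal obese mean of 10.85. Dhrs3, a reductase that returns retinaldehyde to retinol, rose by 1.00 ± 0.20 and Dhrs4, another reductase, by 1.62 ± 0.19. Rpe65, the visual cycle isomerase, rose by 0.90 ± 0.13 with a dim probe set (normal obese mean 4.05 log2), and Rdh13 by 0.36 ± 0.11. With arrays centred on the Sertoli list only Dhrs4 of these 4 stayed positive (0.26), while Dhrs3, Rpe65 and Rdh13 stood at −0.37, −0.46 and −1.01, and Rdh13 was also negative on ribosomal protein genes (−0.36). The third retinaldehyde dehydrogenase gene, Aldh1a3, rose by 1.07 ± 0.23 log2 (limma adjusted p = 0.0039), a difference that was −0.29 on the Sertoli list, and Aldh8a1 differed by −0.07 ± 0.13. With all arrays Rdh11, Dhrs3, Dhrs4, Rpe65, Rdh13 and Aldh1a3 differed by −1.47, 0.72, 1.21, 0.67, 0.25 and 0.80 log2, with limma adjusted p from 0.0702 to 0.184. The remaining hydroxylase gene, Cyp26c1, differed by 0.16 ± 0.15 and did not pass.

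Among 11 other receptor and cofactor genes, 6 rose and 0 fell (median 0.41 log2). Nrip1, a corepressor of nuclear receptors, rose by 2.30 ± 0.23 log2 (SE, limma adjusted p = 0.00011) and Rxra, the partner receptor of the retinoic acid receptors, by 1.21 ± 0.25. The coactivator genes Ncoa2 and Ncoa3 rose by 0.76 ± 0.16 and 0.49 ± 0.13, and Rxrg and Ppard, further receptor genes, by 0.46 ± 0.14 and 0.37 ± 0.14. With arrays centred on the Sertoli list only Nrip1 of the 6 stayed positive (0.94), and on ribosomal protein genes Ncoa3, Rxrg and Ppard were negative (−0.23, −0.26 and −0.35). With all arrays Nrip1, Rxra, Ncoa2, Ncoa3, Rxrg and Ppard differed by 1.74, 0.90, 0.60, 0.39, 0.34 and 0.28 log2, with limma adjusted p from 0.0702 to 0.168. Rarb and Rarg, the other retinoic acid receptor genes, differed by −0.21 ± 0.13 and 0.02 ± 0.15 and did not pass. Their probe sets were dim, with normal obese means of 5.62 and 5.34 log2, which limits what a change could show.

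A list of 12 measured genes that respond to retinoic acid or act beside it split into 4 that rose and 6 that fell (median −0.27 log2). The germ cell genes Meioc and Rec8, which act in meiotic prophase and in the cohesion of meiotic chromosomes, fell by 2.78 ± 0.89 log2 (SE, limma adjusted p = 0.0257) and 2.27 ± 0.48. Meioc differed by −2.09, −0.78, −5.48 and 0.04 in replicates 1 to 4, and Rec8 by −1.82, −1.26, −3.71 and −0.08. Both fell further than Stra8 on every one of replicates 1 to 3, but from higher levels. Normal obese means were 11.47 log2 for Meioc, 9.85 for Rec8 and 7.165 for Stra8. In replicate 3 these genes stood at 5.99, 6.13 and 5.63. Whether the lower level of Stra8 limited its fall was not tested. Sohlh2, Dazl, Dmrtb1 and Nanos2, germ cell regulators, also fell. Those that rose were Rarres2, the chemerin gene, by 3.12 ± 0.25, Tgm2, a transglutaminase gene, by 2.49 ± 0.21, Rarres1 and the receptor gene Kit. With all arrays Meioc, Rec8, Rarres2 and Tgm2 differed by −2.08, −1.72, 2.22 and 1.87 log2, with limma adjusted p from 0.0702 to 0.128. Without replicate 4, Rarres2, Tgm2, Rarres1 and Kit stayed positive under each centring. The 6 that fell stayed negative, as they had to, since each centring shifts differences downward. Rarres1, Rarres2 and Tgm2 are not germ cell genes. Kit, Sohlh1, Sohlh2, Dmrt1 and Dmrtb1 are also among the spermatogonia markers, so their values enter both lists.

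**Figure D4:**
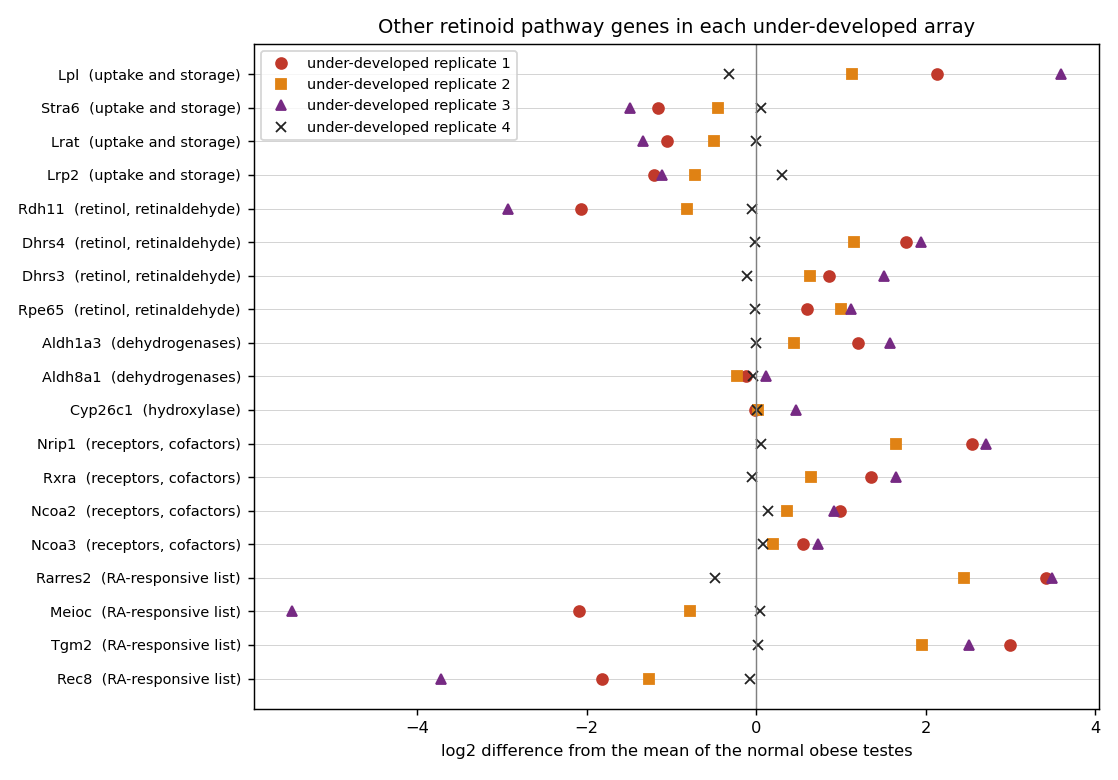
Log2 difference from the mean of the normal obese testes (horizontal axis) of up to 4 genes in each list of other retinoid genes (vertical axis, list in brackets), chosen by the size of their fitted difference. Symbols are the 4 under-developed arrays. Replicate 4 lies furthest from 0 for Rarres2, at −0.48, and replicate 3 reaches −5.48 for Meioc.

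Normal testes of obese and lean rats were compared to ask whether obesity without under-development came with other levels of these genes. With 2 lean arrays, 0 of 9 genes passed limma's test, as did 0% of all genes, and 0 of 9 had an unadjusted p under 0.05, where 0.44% of all genes did. Obese minus lean differences ran from −0.09 ± 0.19 log2 (SE) for Crabp1 to 0.23 ± 0.65 for Aldh1a1, and the limma adjusted p of each rounded to 1. The fit shares its spread with the under-developed arrays, which widens the SE of all 9 genes and limits what could be called. The SE of Aldh1a2 was 0.91 log2 around a difference of 0.00. Fitted on the normal obese and lean arrays alone, the SE was 0.11 log2 for Aldh1a1 and 0.09 for Stra8. In that fit 1141 genes had an unadjusted limma p under 0.05, against 80 in the shared fit. There 0 of the 9 genes and 1 of all genes passed the adjusted threshold. Obese and lean arrays did not overlap for Aldh1a1 and Cyp26b1 (both higher in obese) and Crabp1 (lower in obese), 3 of 9 genes, where 15% of all genes did not.

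Under-developed testes of obese rats set against normal testes of lean rats share arrays with both comparisons above, so the values are given beside them and not as further support. With all arrays 0 of 9 genes passed, as did 0% of all genes, and the differences were 1.96 ± 0.65 log2 (SE) for Aldh1a1, 1.72 ± 0.60 for Cyp26b1, 1.08 ± 0.52 for Rbp4, −0.51 ± 0.21 for Rdh10, −1.96 ± 0.91 for Aldh1a2 and −0.63 ± 0.38 for Stra8. Without replicate 4, 6 of 9 passed in limma, where 48.8% of all genes did, with 3 higher beside 25.6% of all genes and 3 lower beside 23.2%. The differences were 2.58 ± 0.21 log2 (SE) for Aldh1a1, 2.27 ± 0.26 for Cyp26b1, 1.51 ± 0.29 for Rbp4, −0.67 ± 0.14 for Rdh10, −2.60 ± 0.70 for Aldh1a2 and −0.88 ± 0.31 for Stra8, the last with a limma adjusted p of 0.0404.

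For the 5 members with an SD of at least 0.5 log2 over the 10 arrays, the 3 named genes with the most similar differences were sought, by the root mean square difference from the member after each gene's normal obese mean was subtracted. Stra8 was nearest to Phf10 (0.095 log2), Glrx3 and Lrrfip2. Aldh1a1 was nearest to Wls (0.105 log2), Mtarc2 and the cathepsin D gene Ctsd, and Cyp26b1 to Gpam (0.105 log2), Dlc1 and the sterol hydroxylase gene Cyp27a1. Aldh1a2 was nearest to Ppp1r2-ps1 (0.095 log2), the deubiquitinase gene Usp2 and Fbxw10, and Rbp4 to Stat2 (0.079 log2), Maf and Slc39a7. Such likeness rests mainly on the 3 under-developed arrays that stand apart, and no test goes with it.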

How the data were processed

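Testes were profiled on 10 Affymetrix arrays, 1 per sample, and groups came from the sample titles. The log2 values per probe set were deposited by the authors after RMA (background correction, normalization between arrays and summarisation), per the submitters' processing notes. Its settings, software version and genome build are not given in the sources used here, and scanner files, slides and scan dates were not used here. Normalization between arrays makes values relative, so a changed make-up of the tissue moves genes against each other.

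Among 36685 probe sets, 17599 had no symbol in the platform annotation given here, 575 had several and 18511 had 1. Matching by gene number to RefSeq (GRCr8) found 18394 probe sets, whose current symbols were used, and each of 18166 genes was represented by its brightest probe set on average, dim ones included. Differences came from limma 3.58.1 in R 4.3.3 (lmFit, eBayes) over all 10 arrays with a mean per group, two-sided, with Benjamini-Hochberg adjustment over all genes and a threshold of 0.05. The script was tested on data simulated with the spread of the normal obese arrays and equal shifts within a group. Under-developed arrays spread more, with a median SD per gene of 0.36 against 0.10 log2, so that test does not cover them. Tables and plots used Python 3.11.15 and pandas 2.3.3.

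The 9 genes and the gene lists were chosen with earlier results of these data known. The text names all 9 genes, up to 4 genes per pathway list with the largest fitted difference, and the 3 genes nearest in pattern to members with an SD of at least 0.5 log2; further genes of these lists were named after their values were seen. Marker lists covered Sertoli, Leydig, peritubular myoid, macrophage, endothelial, fibroblast, adipocyte and epididymis cells and 3 germ cell stages. Alternatives covered scaling, an offset, filters, probe set rules, moderation, array weights, the samples fitted, the replicate block and each array left out; scaling together with the loss of under-developed replicate 4 was added after the data were seen. Precision is limited by the number of arrays, above all the 2 lean ones.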

Additional observations from a re-analysis of the deposited data

Results flagged for a closer look

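In 18 groups of 4 arrays (9 genes in under-developed and in normal obese testes), 3 arrays lay far from the others of their group by Dixon's gap over range, past its critical value; chance gives about 1 such array in 20 groups. Cyp26a1 in under-developed replicate 1 was lowest, at 5.80 log2 (gap over range 0.848). Normal obese replicate 2 was highest for both Aldh1a1, at 10.03 log2 (0.842), and Aldh1a2, at 10.70 log2 (0.856).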

How the results depend on the processing

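Calls between under-developed and normal obese testes rest on under-developed replicate 4. Leaving out 1 array at a time gave 0 to 10171 genes past the limma threshold and 0 to 6 of the 9 genes, with calls only without that replicate. Array weights gave 9862 genes and 8 of the 9 (5 higher, 3 lower). Centring on the Sertoli list gave 12934 genes (341 higher, 12593 lower) and 6 of the 9 (1 higher, 5 lower). Without replicate 4, alternatives added after the data were seen gave 9901 genes and 6 of the 9 with median centring, 14874 and 8 (3 higher, 5 lower) with ribosomal centring, 16704 and 8 (2 higher, 6 lower) with Sertoli centring, and 10101 and 6 with repeated quantile normalization. Against lean testes, under-developed testes had 0 to 8866 genes and 0 to 6 of the 9 with 1 array left out, and 9620 genes and 7 of the 9 with array weights. Obese against lean normal testes had 1 gene with array weights and 1 when fitted alone.

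Directions that turned, in log2, were as follows. Under-developed minus normal obese, Crabp1 was −0.24 with ribosomal and −0.75 with Sertoli centring, and Rara −0.21 and −0.72. Without replicate 4 these were −0.47 and −1.12 for Crabp1 and −0.29 and −0.94 for Rara. Under-developed minus lean, Crabp1 was −0.43 and −0.89 and Rara −0.29 and −0.75, while Cyp26a1 ran from −0.17 to 0.035 with 1 array left out, positive without under-developed replicate 1. For the uncalled obese minus lean differences, median, ribosomal and Sertoli centring gave −0.012, −0.099 and −0.046 for Aldh1a2. Ribosomal and Sertoli centring gave −0.067 and −0.015 for Cyp26a1 and −0.078 and −0.026 for Rara, and ribosomal centring −0.016 for Cyp26b1. With 1 array left out, values ran from −0.15 to 0.15 for Aldh1a2, −0.032 to 0.099 for Cyp26a1, −0.10 to 0.15 for Rara and −0.055 to 0.026 for Rdh10. The replicate block gave −0.056 for Cyp26a1 and 0.019 for Rbp4. The cause was not tested.

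With the replicate number as a block, 0 genes passed in each comparison and no call changed. Deviations of same-numbered under-developed and normal obese arrays correlated at 0.08, 0.01, 0.02 and 0.26 across genes, so the numbers were not taken to pair samples. Filtering dim genes removed Stra8, Cyp26a1 and Rbp4, which lie nearest the background of the arrays. An offset of 50 before log2 kept direction and call between under-developed and normal obese testes but gave 0.69 against 1.16 for Rbp4, −0.50 against −0.77 for Stra8 and −0.084 against −0.14 for Cyp26a1. Calls were gained with array weights, with Sertoli centring and without replicate 4.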
